A study of Mus musculus with 27 samples.

Results

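The genes described here are 8 factors that attract B cells or keep them alive, with Cxcl13 at their head: the chemokines Cxcl13, Ccl19 and Cxcl12, their receptors Cxcr5, Ccr7 and Cxcr4, and the survival cytokines Tnfsf13b (BAFF) and Tnfsf13 (APRIL). They were chosen by name, as the rows of the count table whose Ensembl gene ID carries one of these symbols in the GENCODE M21 mouse annotation, and make up 8 of 55487 rows. A gene was tested if it had at least 10 counts in at least 4 of the 27 libraries, which 20271 genes and 6 of the 8 factors did. Cxcr5 and Ccl19 did not reach that level and are given as counts.

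The libraries came from wild-type male C57Bl/6J mice, 8 weeks old, in which an osmotic pump delivered fluid into the right lateral ventricle for 14 days at 0.25 μl/h. The pumps held PBS (5 mice), pCtrl (5 mice), a control human IgG without IgLON5 reactivity, or α-IgLON5#1 (4 mice), autoantibodies against the neuronal surface protein IgLON5 purified from the plasma of a single patient. RNA was taken from the cortex and the hippocampus of the hemisphere opposite the pump, which gave 5 PBS, 5 pCtrl and 4 α-IgLON5#1 libraries of cortex and 5, 4 and 4 of hippocampus. The study describes pCtrl as IgG of healthy subject serum whereas the labels call the control a monoclonal, and both infused antibodies are human proteins in mice. Each comparison below asks which of the 8 transcripts differed in brain tissue after the autoantibody, against the control antibody or against buffer.

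CXCL13 is the chemokine that draws B cells into lymphoid follicles through its receptor CXCR5, while CCL19 steers mature dendritic cells and naive lymphocytes through CCR7. BAFF and APRIL are cytokines of the tumor necrosis factor family, made largely by myeloid cells, that keep B cells and antibody-secreting cells alive. CXCL12, which acts on CXCR4, is produced in the healthy brain as well and also guides neuronal precursors and leukocytes, and in chronically inflamed brain and meninges CXCL13 is known as a factor of ectopic B cell follicles.

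Libraries held 19385642 to 58550621 counts, with 19428512 to 32776892 in the α-IgLON5#1 hippocampi and 39479753 to 52212204 in the pCtrl hippocampi. Levels are counts divided by the TMM-scaled library size (CPM), and a gene is said to be called, or to rise or fall, where its fold exceeded 2 and its adjusted p was below 0.05 in edgeR's quasi-likelihood test with Benjamini-Hochberg adjustment over all 20271 genes. The labels give the cell type as neurons, but the libraries are bulk tissue: summed markers of oligodendrocytes (1360 to 3680 CPM), astrocytes (1250 to 2680 CPM) and microglia (198 to 465 CPM) were present in every group beside those of neurons (4850 to 7370 CPM). In bulk tissue, more cells that express a gene and more RNA of it per cell cannot be told apart. Mouse numbers ran from 8 to 17 in the α-IgLON5#1 group and from 10 to 75 in the controls, and whether a number marks a batch is not given in the sources used here.

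Cxcl13 had the largest difference of the 8 genes and was nearly silent without the autoantibody. The gene lies on chromosome 5, 95956951 to 95961068, plus strand of GRCm38 (ENSMUSG00000023078.6), and no other annotated gene overlaps it. To show what precedes its start, the 250 bases upstream of the RefSeq start (GRCm38.p6, chr5:95956689-95956938, plus strand) are printed beside those of Tnfsf13b, the other ligand called in hippocampus (chr8:10006383-10006632, plus strand, before the downstream of 2 listed starts), and of Cxcl12, the ligand with the highest level (chr6:117168285-117168534, plus strand). Capitals mark matches to the motifs searched on both strands.
Cxcl13: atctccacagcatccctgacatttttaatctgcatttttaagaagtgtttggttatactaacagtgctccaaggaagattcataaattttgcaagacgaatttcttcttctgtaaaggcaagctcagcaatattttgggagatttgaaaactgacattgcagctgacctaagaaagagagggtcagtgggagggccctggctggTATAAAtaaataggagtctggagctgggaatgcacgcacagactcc
Tnfsf13b: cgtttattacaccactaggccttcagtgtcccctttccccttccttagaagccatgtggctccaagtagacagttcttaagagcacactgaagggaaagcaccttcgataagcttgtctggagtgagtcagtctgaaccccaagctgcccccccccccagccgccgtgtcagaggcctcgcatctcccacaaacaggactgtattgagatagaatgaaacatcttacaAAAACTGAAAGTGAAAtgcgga
Cxcl12: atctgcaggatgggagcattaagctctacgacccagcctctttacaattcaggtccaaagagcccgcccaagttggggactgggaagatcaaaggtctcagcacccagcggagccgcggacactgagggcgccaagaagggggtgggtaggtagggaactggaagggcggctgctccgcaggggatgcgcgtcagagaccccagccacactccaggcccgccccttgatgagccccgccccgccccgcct
In the Cxcl13 sequence the capitals are a TATA box, TATAAA, 46 to 41 bases before the start, which 12.4% of 32851 RefSeq promoter windows of that length hold. In the Tnfsf13b sequence they are a pair of overlapping matches to the consensus of interferon regulatory factors, AAAACTGAAA and GAAAGTGAAA, 22 to 13 and 16 to 7 bases before the start, and 10.2% of windows hold this consensus. The Cxcl12 window, which is 64.4% G or C against 42.0% for Cxcl13, had no match to these motifs or to the NF-kB consensus (3.9% of windows). The window before the upstream Tnfsf13b start (chr8:10006217-10006466), which ends next to the annotated start of the gene, had no match either. Promoter sequences were at hand for 6 of the 8 genes, those of Cxcr5 and Ccr7 being absent from the set of RefSeq windows used. Among the others the Ccl19 window also matched the interferon regulatory factor consensus and that of Cxcr4 held TATAAA, which overlaps its own match on the other strand, a match being a description of letters and not of a bound site.

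In hippocampus, Cxcl13 had 88, 327, 191 and 88 counts in α-IgLON5#1 mice 8, 9, 16 and 17, or 4.33, 18.4, 5.85 and 2.52 CPM. The pCtrl hippocampi of mice 10, 15, 37 and 75 had 0, 5, 0 and 0 counts, and the 5 PBS hippocampi had 0, 0, 1, 0 and 1. All libraries of the autoantibody were thus above every control library, the lowest with 88 counts against a highest control of 5. Cxcl13 rose with a log2 fold change of 7.98 ± 0.882 (SE) against pCtrl (edgeR adjusted p = 1.53e-06) and of 9.15 ± 0.921 against PBS (adjusted p = 1.62e-07).

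In cortex, the counts of mice 8, 9, 16 and 17 were 202, 268, 50 and 92, or 5.49, 9.67, 1.19 and 1.65 CPM. The pCtrl cortices of mice 10, 11, 15, 37 and 75 had 2, 0, 0, 2 and 2 counts and the PBS cortices 0, 1, 0, 0 and 1. Again no control library came near the lowest library of the autoantibody, and within the α-IgLON5#1 group mouse 9 had the highest level in both tissues. Cxcl13 rose by 6.68 ± 0.835 on the log2 scale against pCtrl (edgeR adjusted p = 1.62e-05) and by 8.14 ± 0.953 against PBS (adjusted p = 4.82e-06).

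Since the control groups held few counts, the size of the change is better read from summed counts per total. Against pCtrl the ratio was 241 in hippocampus (694 against 5 counts, exact 95% interval 103 to 743) and 99.5 in cortex (612 against 6 counts, 45.5 to 272). Against PBS, with 2 counts in each tissue, it was 655 (181 to 5420) and 318 (87.6 to 2630), and these intervals cover counting error only, not the spread between mice. All 5 counts of the pCtrl hippocampi were in mouse 15, without which the fitted log2 fold change was 11.08 and Cxcl13 was at least 285-fold higher, taking 3 counts over the remaining 3 libraries as the floor. Without α-IgLON5#1 mouse 9, the highest in both tissues, the fitted values were 7.13 against pCtrl and 8.29 against PBS in hippocampus, and 5.99 and 7.46 in cortex, all still called. When only mice numbered 8 to 17 were kept, which left pCtrl mice 10, 11 and 15 and PBS mouse 14 as controls, the call was lost in both tissues (log2 fold change 7.20, adjusted p = 0.062 in hippocampus, and 7.47, adjusted p = 0.0664 in cortex, against pCtrl). Mouse 11 had no hippocampus library, so the hippocampal refit rested on pCtrl mice 10 and 15. With a score of tissue composition (cortex-like against hippocampus-like genes) as a covariate, the differences from pCtrl were 6.08 in hippocampus and 5.27 in cortex, both still called (adjusted p = 6.39e-05 and 0.000211). The pCtrl and PBS groups differed by 1.17 ± 1.97 in hippocampus and 1.46 ± 1.97 in cortex (log2, adjusted p = 0.847 and 0.901).

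**Figure D1:**
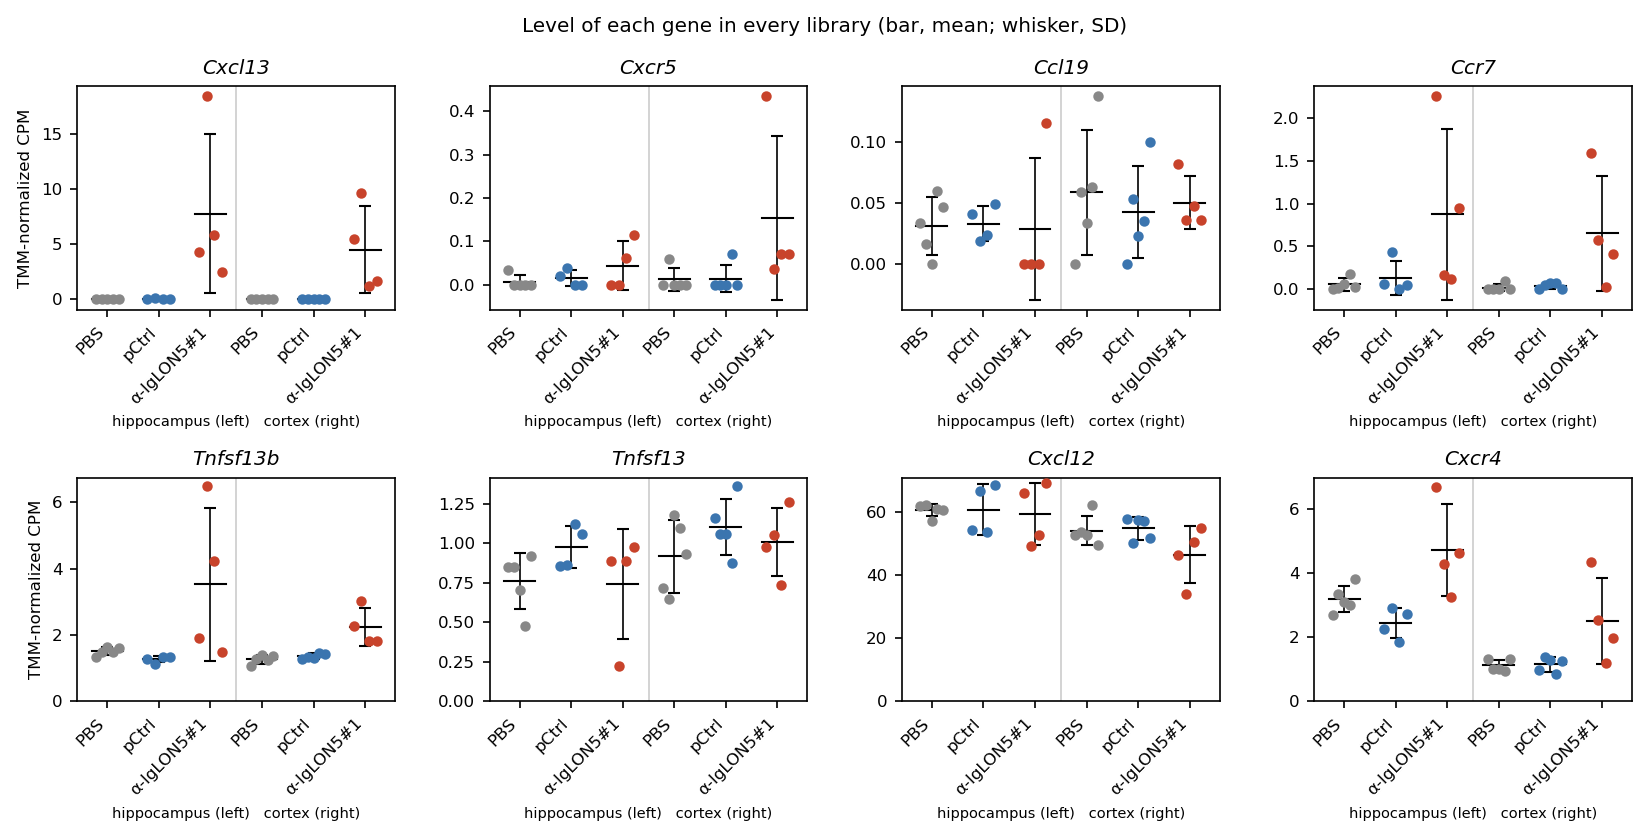
TMM-normalized CPM (linear y axes, 1 panel per gene) of the 8 genes in each of the 27 libraries, hippocampus on the left and cortex on the right of the vertical line, with grey points for PBS, blue for pCtrl and red for α-IgLON5#1, the bar the mean and the whisker the SD. Cxcl13 is near 0 in every control library and between 1.19 and 18.4 CPM after α-IgLON5#1, whereas the groups overlap for Tnfsf13 and Cxcl12.

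Cxcr5, the receptor of CXCL13 on B cells and follicular helper T cells, stayed at the edge of detection (chromosome 9, 44511787 to 44561877, minus strand, ENSMUSG00000047880.15). Its exons overlap those of Bcl9l on the other strand, so single counts are uncertain. In the α-IgLON5#1 cortices of mice 8, 9, 16 and 17 it had 16, 1, 3 and 4 counts, and in the hippocampi of the same mice 0, 0, 2 and 4. No control library had more than 2 counts, and only the cortex of mouse 8, among the 27 libraries, exceeded 4. Summed over the cortex libraries, 24 counts after α-IgLON5#1 stood against 2 in pCtrl (ratio 11.7, exact 95% interval 2.91 to 102, counting error only), 16 of them from mouse 8. When all genes with at least 1 count were tested, the cortex difference from pCtrl was 3.24 ± 1.03 (log2, edgeR adjusted p = 0.136). The difference thus did not pass the test at this depth, and the counting interval does not cover the spread between mice.

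Ccl19 was as low in all groups, while Ccr7, its receptor on mature dendritic cells and naive or central memory T cells, was higher in some of the autoantibody libraries. Ccl19 (chromosome 4, 42754525 to 42756577, minus strand, ENSMUSG00000071005.7) had 0 to 5 counts in every library, with sums of 4, 6 and 6 counts in the α-IgLON5#1, pCtrl and PBS hippocampi and of 8, 6 and 10 in the cortices. A near-identical copy on an unplaced scaffold had 0 counts in all 27 libraries, so the counting may have split or dropped reads of this gene, and its level is uncertain.

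Ccr7 (chromosome 11, 99144196 to 99155077, minus strand, ENSMUSG00000037944.8) had 46, 3, 4 and 33 counts in the α-IgLON5#1 hippocampi of mice 8, 9, 16 and 17, or 2.26, 0.169, 0.123 and 0.946 CPM. The pCtrl hippocampi had 3, 23, 0 and 2 counts, with the 23 in mouse 15, and the PBS hippocampi 0, 1, 2, 6 and 1. Mice 8 and 17 were above every control, whereas mice 9 and 16 lay within the range of the controls. The log2 fold change was 2.53 ± 0.909 against pCtrl (edgeR adjusted p = 0.0905, not called) and 3.98 ± 1.02 against PBS (adjusted p = 0.0195, called).

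In cortex, Ccr7 counts were 59, 16, 1 and 23 in the same mice, against 0, 1, 3, 2 and 0 in pCtrl and 0, 0, 0, 3 and 0 in PBS. The library of mouse 16 again fell among the controls and the other 3 were above them. The difference was 3.91 ± 1.13 from pCtrl (log2, edgeR adjusted p = 0.0518) and 4.88 ± 1.25 from PBS (adjusted p = 0.0229, called). These calls rested on single libraries: without pCtrl mouse 15 the hippocampal difference from pCtrl was 4.38 with an adjusted p of 0.0191. Without α-IgLON5#1 mouse 16 the differences from pCtrl were called in both tissues, at 2.93 (adjusted p = 0.0363) in hippocampus and 4.33 (adjusted p = 0.0119) in cortex. Without α-IgLON5#1 mouse 8 those from pCtrl were 1.58 (adjusted p = 0.413) and 2.94 (adjusted p = 0.32), and with the composition score as a covariate 1.39 (adjusted p = 0.711) and 2.83 (adjusted p = 0.319). Without α-IgLON5#1 mouse 8 the differences from PBS were 3.03 (adjusted p = 0.182) in hippocampus and 3.91 (adjusted p = 0.251) in cortex. They also missed the threshold without PBS mouse 32 or 74 in hippocampus (adjusted p = 0.0693 and 0.0578) and without PBS mouse 14, 32, 33 or 74 in cortex (adjusted p = 0.0665, 0.0714, 0.0659 and 0.0763). Fitted on only the groups compared, the Ccr7 difference from PBS in cortex was 4.91 (adjusted p = 0.0683), and with all genes of at least 1 count that from pCtrl was called (3.94, adjusted p = 0.0329).

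Cxcl12 had by far the highest level of the 8 genes and did not pass the test in any comparison. The gene (chromosome 6, 117168535 to 117181367, plus strand, ENSMUSG00000061353.11) had 66.1, 49.3, 52.5 and 69.1 CPM in the α-IgLON5#1 hippocampi of mice 8, 9, 16 and 17. The pCtrl hippocampi had 54.1, 66.7, 53.5 and 68.5 CPM and the PBS hippocampi 61.8, 62.3, 57.2, 61.0 and 60.5. The ranges overlapped, with mouse 9 the lowest. The difference from pCtrl was -0.03 ± 0.115 (log2), with an interval of ± 1.96 SE from -0.26 to 0.19.

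In cortex, Cxcl12 was at 46.4, 34.1, 50.4 and 54.9 CPM after α-IgLON5#1, at 57.8, 50.1, 57.3, 57.0 and 51.6 CPM in pCtrl and at 52.5, 53.5, 52.8, 62.0 and 49.5 CPM in PBS. The cortices of mice 8 and 9 were below every control, and those of mice 16 and 17 lay among them. The differences were -0.24 ± 0.110 from pCtrl and -0.22 ± 0.110 from PBS on the log2 scale (edgeR adjusted p = 0.297 and 0.573).

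Cxcr4, which marks B cells, T cells, neutrophils and vessels and is also made by microglia and neuronal precursors, was higher after α-IgLON5#1 (chromosome 1, 128588199 to 128592293, minus strand, ENSMUSG00000045382.6). In cortex it was at 4.35, 2.53, 1.19 and 1.99 CPM in mice 8, 9, 16 and 17, against 0.970, 1.38, 1.30, 0.843 and 1.26 CPM in pCtrl and 1.32, 1.01, 1.01, 0.946 and 1.32 CPM in PBS. Mice 8, 9 and 17 were above every control and mouse 16 lay among them. Cxcr4 rose by 1.12 ± 0.263 (log2) against pCtrl (edgeR adjusted p = 0.0120) and by 1.15 ± 0.261 against PBS (adjusted p = 0.00788). Without mouse 8 both calls were lost, at 0.71 (adjusted p = 0.176) and 0.75 (adjusted p = 0.157), and so they were when only the groups compared were fitted, at 1.13 (adjusted p = 0.127) and 1.18 (adjusted p = 0.121).

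In hippocampus, Cxcr4 was at 6.69, 4.28, 3.25 and 4.64 CPM after α-IgLON5#1, at 2.27, 2.91, 1.86 and 2.73 CPM in pCtrl and at 2.69, 3.35, 3.11, 3.0 and 3.81 CPM in PBS. The libraries of the autoantibody were all above pCtrl, while mouse 16 lay within the PBS range. The difference from pCtrl was 0.94 ± 0.259 (log2, edgeR adjusted p = 0.0271), under the fold threshold and so not called, and that from PBS was 0.55 ± 0.243 (adjusted p = 0.256). Without pCtrl mouse 15 or α-IgLON5#1 mouse 16 the difference from pCtrl was called, at 1.04 (adjusted p = 0.0239) and 1.09 (adjusted p = 0.0106). A composition score moved with this comparison: 2 of the pCtrl hippocampi, mice 10 and 37, were higher, that is more cortex-like, than the other hippocampi on this score, the mean log2 level of 100 cortex genes minus that of 100 hippocampus genes, centred within the tissue (1.00 and 1.68, against -0.859 to 0.138 in the rest). With the score as a covariate the Cxcr4 difference from pCtrl was 0.55 in hippocampus (adjusted p = 0.55) and 0.87 in cortex (adjusted p = 0.0987).

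Tnfsf13b encodes BAFF, without which mature B cells do not persist, and it rose in the hippocampus (chromosome 8, 10006467 to 10039072, plus strand, ENSMUSG00000031497.9). Its levels were 1.92, 6.48, 4.23 and 1.49 CPM in the α-IgLON5#1 hippocampi of mice 8, 9, 16 and 17, from 39, 115, 138 and 52 counts. The pCtrl hippocampi had 1.29, 1.13, 1.33 and 1.33 CPM and the PBS hippocampi 1.33, 1.48, 1.64, 1.48 and 1.62 CPM. Mice 9 and 16 stood well above all controls, mouse 8 slightly, and mouse 17 was above pCtrl only. Tnfsf13b rose by 1.45 ± 0.277 (log2) against pCtrl (edgeR adjusted p = 0.00147) and by 1.20 ± 0.260 against PBS (adjusted p = 0.00417), a fold of 2.74 and of 2.29. Without mouse 9 the difference from PBS was 0.75 (adjusted p = 0.0616), and with the composition score as a covariate that from pCtrl was 1.19 (adjusted p = 0.134). Fitted on only the groups compared, neither difference was called (adjusted p = 0.113 against pCtrl and 0.138 against PBS).

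In cortex, Tnfsf13b was at 2.26, 3.03, 1.81 and 1.83 CPM after α-IgLON5#1, at 1.28, 1.33, 1.30, 1.47 and 1.43 CPM in pCtrl and at 1.06, 1.27, 1.41, 1.26 and 1.37 CPM in PBS. The groups did not overlap, mouse 9 being highest, but the differences of 0.70 ± 0.266 and 0.79 ± 0.264 (log2) did not pass the test (edgeR adjusted p = 0.177 and 0.152). For reading such separations, 3.68% of tested genes had all 4 autoantibody cortices above all pCtrl cortices and 3.14% had them above all PBS cortices. The corresponding shares in hippocampus were 6.68% and 4.49%.

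Tnfsf13, which encodes APRIL, the survival factor of plasma cells, did not pass the test anywhere (chromosome 11, 69682846 to 69685784, minus strand, ENSMUSG00000089669.7). Its level was 0.886, 0.225, 0.889 and 0.974 CPM in the α-IgLON5#1 hippocampi, 0.858, 0.865, 1.12 and 1.06 CPM in pCtrl and 0.853, 0.853, 0.704, 0.475 and 0.918 CPM in PBS. The 4 counts of mouse 9 set that library apart from the other hippocampi, which overlapped between groups. Cortex levels ran from 0.738 to 1.26 CPM after α-IgLON5#1, 0.878 to 1.36 CPM in pCtrl and 0.650 to 1.18 CPM in PBS. The differences from pCtrl were -0.33 ± 0.271 in hippocampus and -0.13 ± 0.247 in cortex (log2, edgeR adjusted p = 0.518 and 0.857). Exons of Tnfsf13 overlap those of the readthrough gene Tnfsfm13 on its own strand and of Tnfsf13os on the other. Library strand is marked by the kit, but the strand setting of the counting is not given in the sources used here, so these counts may be shared.

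Of the 6 factors tested, 2 were called against pCtrl in hippocampus (Cxcl13 and Tnfsf13b) and 2 in cortex (Cxcl13 and Cxcr4), where 2.21% and 2.14% of all tested genes were called as higher. Against PBS it was 3 in hippocampus (Cxcl13, Tnfsf13b and Ccr7) and 3 in cortex (Cxcl13, Ccr7 and Cxcr4), with backgrounds of 2.56% and 2.24%. None fell, against 0.237%, 0.0247%, 0.109% and 0.00493% of all genes called as lower in these comparisons. Cxcl13 and Ccr7 met the count filter only because of the α-IgLON5#1 libraries. Their place among the 6, and the tallies and medians that include them, therefore depend partly on the filter. The comparisons with pCtrl and with PBS share the autoantibody libraries, and both tissues come from the same mice, so they are not independent of each other. The median log2 fold change of the 6 factors was 1.20 in hippocampus and 0.91 in cortex against pCtrl, beside 0.00 and -0.01 over all tested genes. Between pCtrl and PBS none of the 6 was called in either tissue, where 0.0641% of genes in hippocampus and 0.0% in cortex were called in either direction, and none of the 6 had an unadjusted p under 0.05 in edgeR or a call in DESeq2.

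**Figure D2:**
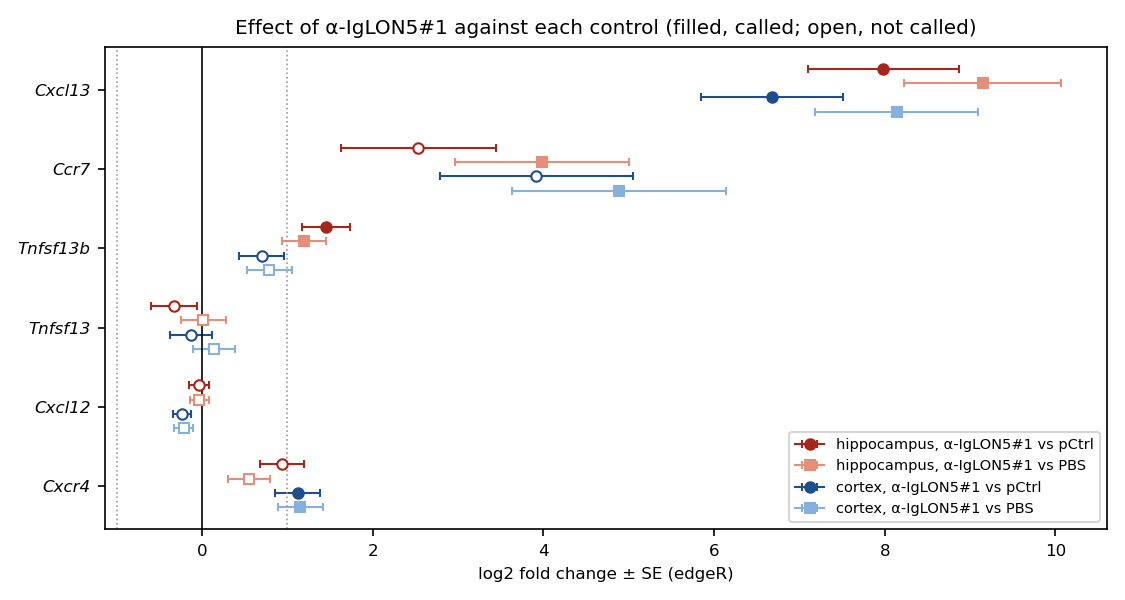
Log2 fold change (x axis) with its SE of the 6 tested genes (y axis) for α-IgLON5#1 against pCtrl (circles) and PBS (squares) in hippocampus (red) and cortex (blue), filled where called, with dotted lines at a fold of 2. Cxcl13 lies at 6.68 to 9.15, Ccr7 at 2.53 to 4.88 with wide errors, and Cxcl12 and Tnfsf13 lie near 0.

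Between tissues, the effect of the autoantibody did not differ by the test for any of the 6 factors, in which 0.0% of tested genes were called in either direction against pCtrl and 0.00493% against PBS. The largest differences in effect against pCtrl, cortex minus hippocampus, were 1.38 ± 1.55 for Ccr7, -1.31 ± 1.86 for Cxcl13 and -0.76 ± 0.384 for Tnfsf13b (log2, edgeR adjusted p = 0.806, 0.855 and 0.496). For Tnfsf13b the interval of ± 1.96 SE ran from -1.51 to -0.0035, and for Cxcl13 from -4.95 to 2.34, so sizeable differences between tissues were not detectable with these mice. None of the 6 had an unadjusted p under 0.05 in this test or in that of the effects against PBS, and DESeq2 called 0 of them. In the buffer-infused mice, Cxcr4 was the factor that differed between tissues: cortex was lower than hippocampus by a log2 difference of -1.51 ± 0.248 (edgeR adjusted p = 3.73e-05), without overlap, where 2.87% of genes were called as lower in cortex. Cxcl12 differed by -0.16 ± 0.103 (adjusted p = 0.269).

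Divided by exon length, the factors could be ordered by level. The length is the union of all annotated exons, 8176 bases for Cxcl12 and 1150 for Cxcl13, and the order depends on it. Undivided, the means in the α-IgLON5#1 hippocampi were 59.2 CPM for Cxcl12 and 7.78 CPM for Cxcl13. In the PBS hippocampus Cxcl12 led with 7.41 ± 0.246 CPM per kilobase (SD, n = 5), followed by Cxcr4 (1.77 ± 0.232), Tnfsf13 (0.465 ± 0.109) and Tnfsf13b (0.220 ± 0.0185). Ccl19, Ccr7, Cxcl13 and Cxcr5 came last, in that order and each at or below 0.0362 CPM per kilobase, and neighbours among them do not differ beyond their spread. After α-IgLON5#1, Cxcl13 moved to 6.77 ± 6.28 CPM per kilobase in hippocampus (SD, n = 4), a mean next to that of Cxcl12 (7.25 ± 1.20), and to 3.91 ± 3.43 in cortex, where Cxcl12 was at 5.68 ± 1.09. The spread of Cxcl13 spans that of its neighbour in both tissues. The mean rested on mouse 9, with 16.0 CPM per kilobase in hippocampus and 8.41 in cortex: in the other 3 mice Cxcl13, at 2.19 to 5.09 in hippocampus and 1.04 to 4.77 in cortex, was below the Cxcl12 of the same library. Cxcr4 (2.61 ± 0.799), Tnfsf13b (0.514 ± 0.336), Tnfsf13 (0.454 ± 0.213) and Ccr7 (0.443 ± 0.505) followed in hippocampus, the last 3 within each other's spread, and Cxcr5 stayed at 0.0132 ± 0.0166.

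The 4 mice of the autoantibody group differed from each other in which factor was high. In hippocampus the order of Cxcl13 was mouse 9, 16, 8 and 17, and Tnfsf13b had that order too. In cortex both genes followed the order 9, 8, 17 and 16. Ccr7 was highest in mouse 8 in both tissues, at 2.26 and 1.60 CPM, and low in the hippocampus of mouse 9 (0.169 CPM), the library with the highest Cxcl13 of all. Hippocampus over cortex, Cxcl13 was 4.92 in mouse 16, 1.90 in mouse 9, 1.53 in mouse 17 and 0.789 in mouse 8. With 4 mice and 1 library per tissue these orders are a description without a test.

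**Figure D3:**
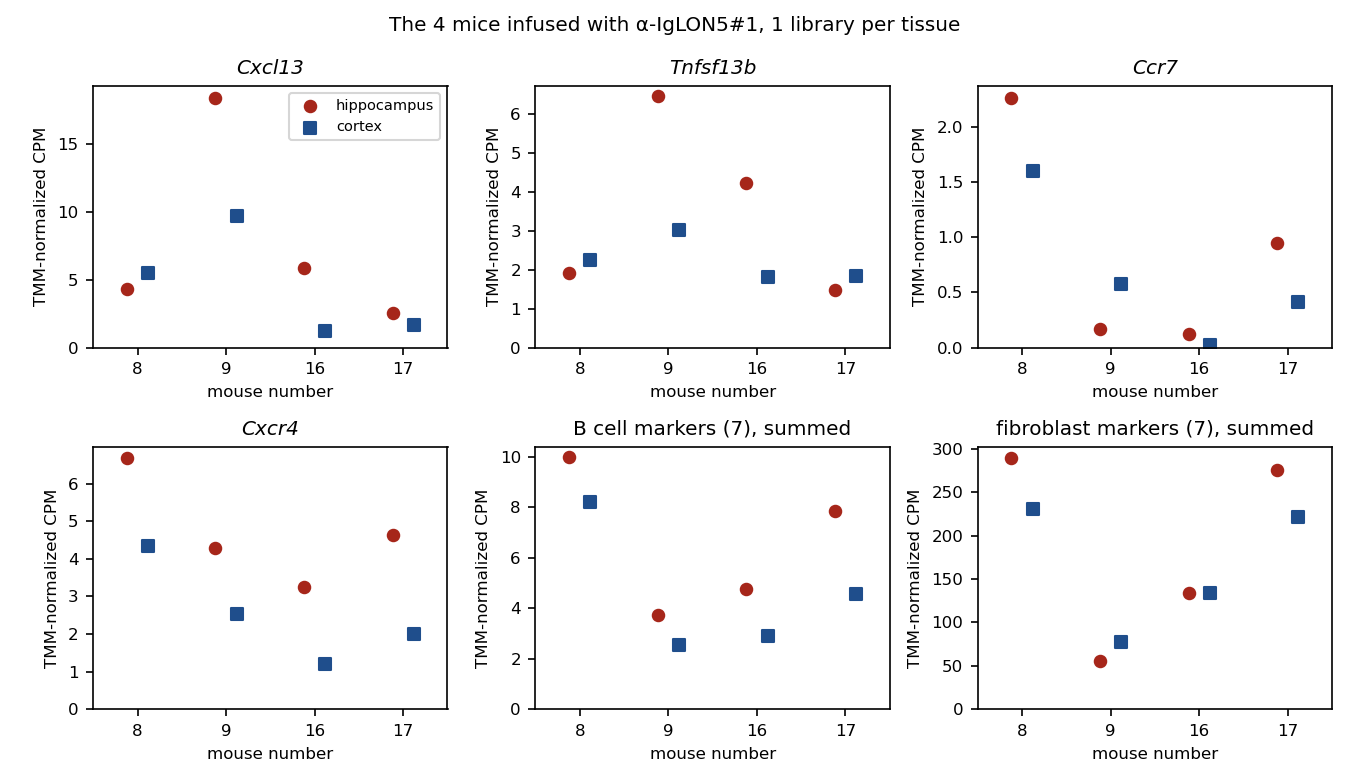
TMM-normalized CPM (y axes, from 0) of 4 factors and the summed CPM of the B cell and meningeal fibroblast markers in the 4 α-IgLON5#1 mice (x axis), with red circles for hippocampus and blue squares for cortex. Cxcl13 and Tnfsf13b are highest in mouse 9, whereas Ccr7, Cxcr4 and both marker sums are highest in mouse 8.

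Markers of some other cell types also differed between the groups. The 7 B cell markers (Cd79a, Cd79b, Ms4a1, Pax5, Cd22, Blk and Fcrla) summed to 3.72 to 10.0 CPM in the α-IgLON5#1 hippocampi, against 0.976 to 1.65 CPM in pCtrl and 0.848 to 1.53 CPM in PBS. In cortex the sums were 2.53 to 8.21, 1.0 to 1.36 and 0.797 to 1.77 CPM. Against pCtrl, 4 of the 6 tested B cell markers were called as higher in hippocampus and 3 of 6 in cortex, and none as lower, beside 2.21% and 2.14% of all tested genes called as higher. The order of the sums, mouse 8, 17, 16 and 9 in both tissues, put mouse 9 last, the mouse with the highest Cxcl13. Within the group Ms4a1 was at 0 counts in 1 of 4 hippocampi and 1 of 4 cortices. The part of B cells in the levels of Cxcr5, Cxcr4 and Ccr7 was not tested.

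The plasma cell gene Jchain, which joins antibody chains in IgM and IgA, averaged 44.8 ± 32.0 CPM in the α-IgLON5#1 hippocampus and 19.1 ± 11.3 CPM in cortex (SD, n = 4), against 0.504 ± 0.344 and 0.502 ± 0.216 CPM in pCtrl (n = 4 and 5). Of the 6 tested plasma cell markers 2 were called as higher against pCtrl in hippocampus and 1 in cortex (2.21% and 2.14% of all tested genes), and 4 of 6 passed the p threshold alone in hippocampus (4.23% of all tested genes, higher). The 7 markers summed to 150, 64.0, 122 and 162 CPM in the hippocampi of mice 8, 9, 16 and 17 and 121, 80.3, 108 and 118 CPM in the cortices, against 60.2 to 75.2 and 81.4 to 97.2 CPM in pCtrl. Mouse 9, with the most Cxcl13, was thus within the pCtrl range in hippocampus and just below it in cortex, and the other 3 mice were above it. In pCtrl Jchain averaged 0.504 and 0.502 CPM, so the other listed genes made up most of this sum. The sum alone therefore does not show whether mouse 9 held plasma cells. T cell markers summed to 4.11 to 8.17 CPM in the α-IgLON5#1 hippocampi against 2.47 to 4.59 CPM in pCtrl, and in cortex to 8.39 to 9.7 CPM against 6.62 to 9.05 CPM, where the groups overlap in both. Of the 5 tested, 1 was called in each tissue. Cd3d averaged 0.192 CPM against 0.0307 CPM in hippocampus, near the level of 3 counts (0.0915 to 0.154 CPM in the α-IgLON5#1 hippocampi). Of 8 tested dendritic cell markers 2 were called in each tissue, against the same background of 2.21% and 2.14%, Itgax and Ccl22, while the sum of that list, 195 to 237 CPM against 187 to 199 CPM in the pCtrl hippocampi, was carried by Fscn1, which neurons express as well. The part of T cells and dendritic cells in the level of Ccr7 was not tested.

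Microglial markers summed to 260 to 465 CPM in the α-IgLON5#1 hippocampi against 213 to 252 CPM in pCtrl, and to 244 to 290 CPM against 221 to 270 CPM in cortex, with no marker called in either tissue and 4 of 7 past the p threshold alone in hippocampus, beside 4.23% of all tested genes that passed it as higher. In hippocampus the sum was highest in mouse 9 (465 CPM) and next in mouse 16 (365 CPM), the mice with the most Cxcl13 and Tnfsf13b. In cortex the orders differed, with microglial sums of 244, 290, 285 and 272 CPM in mice 8, 9, 16 and 17, of which mouse 16 had the least Cxcl13. Of 7 border macrophage markers 1 was called as higher in hippocampus against pCtrl, Ms4a7 at 1.94 ± 0.366, and 1 as lower, Lyve1 at -1.81 ± 0.316 (log2, edgeR adjusted p = 0.00127 and 0.000581). Of all tested genes 2.21% were called as higher there and 0.237% as lower. In cortex 1 marker was called as higher and 1 as lower, beside 2.14% and 0.0247% of all tested genes. The median over the 7 in hippocampus was -0.65 against pCtrl and 0.07 against PBS. Their sum was lowest in mouse 9, at 5.75 CPM in hippocampus and 7.43 CPM in cortex. Meningeal fibroblast markers ran from 55.3 CPM (mouse 9) to 290 CPM (mouse 8) in the α-IgLON5#1 hippocampi and from 202 to 247 CPM in pCtrl. Neutrophil markers were at 13.1 CPM in the cortex of mouse 8 against at most 3.86 CPM in the control cortices, with Ly6g at 0 counts in all 4 α-IgLON5#1 cortices. In the hippocampus of mouse 8 they were at 7.63 CPM against at most 4.81 CPM in the control hippocampi. None of the 4 tested was called against pCtrl in either tissue. Astrocyte markers summed to 1880 to 2680 CPM in the α-IgLON5#1 hippocampi against 1490 to 1750 CPM in pCtrl, with 1 of 5 called as higher, beside 2.21% of all tested genes. Neuron markers summed to 4850 to 5170 CPM against 5170 to 6120 CPM, with none called and 1 of 6 past the p threshold alone as lower. Endothelial sums overlapped, at 168 to 241 CPM against 200 to 222 CPM in the pCtrl hippocampi, as did those of choroid plexus and oligodendrocytes. The part of each of these cell types in the factors' levels was not tested.

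Of the 31 other genes of these pathways, 23 were tested and 4 were called as higher against pCtrl in each tissue, beside 2.21% of all tested genes in hippocampus and 2.14% in cortex, and none as lower. The median log2 fold change of the 23 was 0.54 in hippocampus and 0.45 in cortex, beside 0.00 and -0.01 over all tested genes. Against PBS 7 were called as higher in hippocampus and 6 in cortex (2.56% and 2.24% of all tested genes), and between pCtrl and PBS none in either tissue by edgeR or DESeq2, with 1 of 23 in hippocampus and 0 in cortex at an unadjusted p under 0.05. By list, against pCtrl, 1 of 8 chemokine network genes was called in each tissue. For the receptors and processing of BAFF and APRIL it was 1 of 4 in hippocampus and 0 of 4 in cortex. For lymphotoxin, CD40 and non-canonical NF-kB it was 1 of 7 in each, and for interleukins of B cell growth 1 of 4 and 2 of 4. When only mice 8 to 17 were kept, Il21r in hippocampus (1.23, adjusted p = 0.045) was the 1 call left among these genes in both tissues, Tnfrsf13b in hippocampus being at 1.20 (adjusted p = 0.0616) and Il21r in cortex at 1.04 (adjusted p = 0.0633).

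Tnfrsf13b encodes TACI, a receptor of both BAFF and APRIL. It was at 3.30, 5.29, 3.89 and 2.92 CPM in the α-IgLON5#1 hippocampi of mice 8, 9, 16 and 17, against 1.63, 1.69, 1.21 and 1.28 CPM in pCtrl and at most 1.58 CPM in PBS. No control reached the lowest of them, and mouse 9 was again the highest. Tnfrsf13b rose by 1.39 ± 0.181 in hippocampus (log2, edgeR adjusted p = 1.33e-05). In cortex the difference of 0.92 ± 0.176 passed the p but not the fold threshold (adjusted p = 0.00175), and without mouse 16 it was called at 1.01 (adjusted p = 0.000832). The other receptors of the pair, given here to complete the set, were not called against pCtrl: Tnfrsf13c, the BAFF receptor, differed by 0.76 ± 0.315 in hippocampus (adjusted p = 0.152) and Tnfrsf17 (BCMA) by -0.40 ± 0.452 (adjusted p = 0.668). Against PBS Tnfrsf13c was called in hippocampus, at 0.73 ± 0.309 CPM against 0.291 ± 0.114 CPM (SD, n = 4 and 5), a log2 fold change of 1.34 ± 0.315 (adjusted p = 0.00889), with the groups overlapping.

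Nfkb2 encodes the p100 precursor of p52, through which lymphotoxin and BAFF receptors signal. It was at 20.1, 7.43, 6.13 and 6.22 CPM in the α-IgLON5#1 hippocampi and 23.6, 7.54, 4.71 and 6.35 CPM in the cortices of mice 8, 9, 16 and 17, with controls at 2.46 to 4.0 CPM. Nfkb2 rose in both tissues, by 1.60 ± 0.377 and 1.69 ± 0.354 (log2, edgeR adjusted p = 0.0101 and 0.00427), with mouse 8 far above the others. Without mouse 8 the differences were 1.01 (adjusted p = 0.103) and 0.92 (adjusted p = 0.111), and with the composition score as a covariate 1.25 (adjusted p = 0.334) and 1.47 (adjusted p = 0.0502). With the second score, built without genes that differed between treatments, the cortical difference was still called (1.51, adjusted p = 0.0398) and the hippocampal one was not (1.34, adjusted p = 0.182). Fitted on only the groups compared they were 1.59 and 1.70 (adjusted p = 0.0589 and 0.0688). Relb, its partner subunit, named here after its values were seen, differed by 0.72 ± 0.271 and 0.94 ± 0.259 (adjusted p = 0.108 and 0.0384), under the fold threshold.

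Ch25h makes 25-hydroxycholesterol, from which the oxysterols that guide B cells through the receptor GPR183 are formed. It was at 11.8, 3.21, 1.53 and 1.78 CPM in the α-IgLON5#1 hippocampi and at 23.8, 5.38, 0.500 and 2.12 CPM in the cortices, against 0.571 to 0.712 CPM in the pCtrl hippocampi and 0.282 to 0.798 CPM in the pCtrl cortices. The cortex of mouse 16 lay among the controls and mouse 8 was the highest in both tissues. Ch25h rose by 2.80 ± 0.766 in hippocampus and 3.96 ± 0.747 in cortex (log2, edgeR adjusted p = 0.0261 and 0.00153). Without mouse 8 the differences were 1.72 (adjusted p = 0.224) and 2.35 (adjusted p = 0.0526). The hippocampal call was also lost without pCtrl mouse 10 or 37 (adjusted p = 0.0782 and 0.0924), at differences of 2.75 and 2.76, and with the composition score as a covariate (1.90, adjusted p = 0.546). Fitted on only the groups compared, neither difference was called (2.79 and 3.97, adjusted p = 0.0569 and 0.0566).

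Il21r, the receptor of the helper T cell cytokine that drives plasma cell formation, was at 4.68, 6.36, 4.5 and 3.78 CPM in the α-IgLON5#1 hippocampi against 1.72, 2.37, 1.59 and 1.99 CPM in pCtrl. It was at 3.94, 4.94, 3.52 and 3.89 CPM in the cortices, against at most 2.21 CPM in the control cortices. The levels were even among the mice and did not overlap with any control. Il21r rose by 1.32 ± 0.154 and 1.11 ± 0.146 (log2, edgeR adjusted p = 2.71e-06 and 3.14e-05), and without mouse 8 it was still called in both tissues. With the composition score as a covariate the cortical difference was 0.93 (adjusted p = 0.000175), under the fold threshold. Its ligand Il21 was below the count filter, with 6 and 12 counts summed over the α-IgLON5#1 hippocampi and cortices against 12 and 8 in pCtrl. Il4ra, the receptor chain for IL-4 and IL-13, was at 23.4, 11.1, 8.48 and 9.23 CPM in the α-IgLON5#1 cortices against at most 7.39 CPM in pCtrl, and rose by 1.01 ± 0.270 (edgeR adjusted p = 0.0328). Without mouse 8 the difference was 0.56 (adjusted p = 0.343), and leaving out pCtrl mouse 10, 11, 37 or 75 gave adjusted p of 0.0605, 0.0763, 0.0705 and 0.0768. The call was also lost at differences of 1.09 with the composition score as a covariate (adjusted p = 0.0643) and 1.02 on only the groups compared (adjusted p = 0.0973). In hippocampus it was 0.73 ± 0.285 (adjusted p = 0.119).

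**Figure D4:**
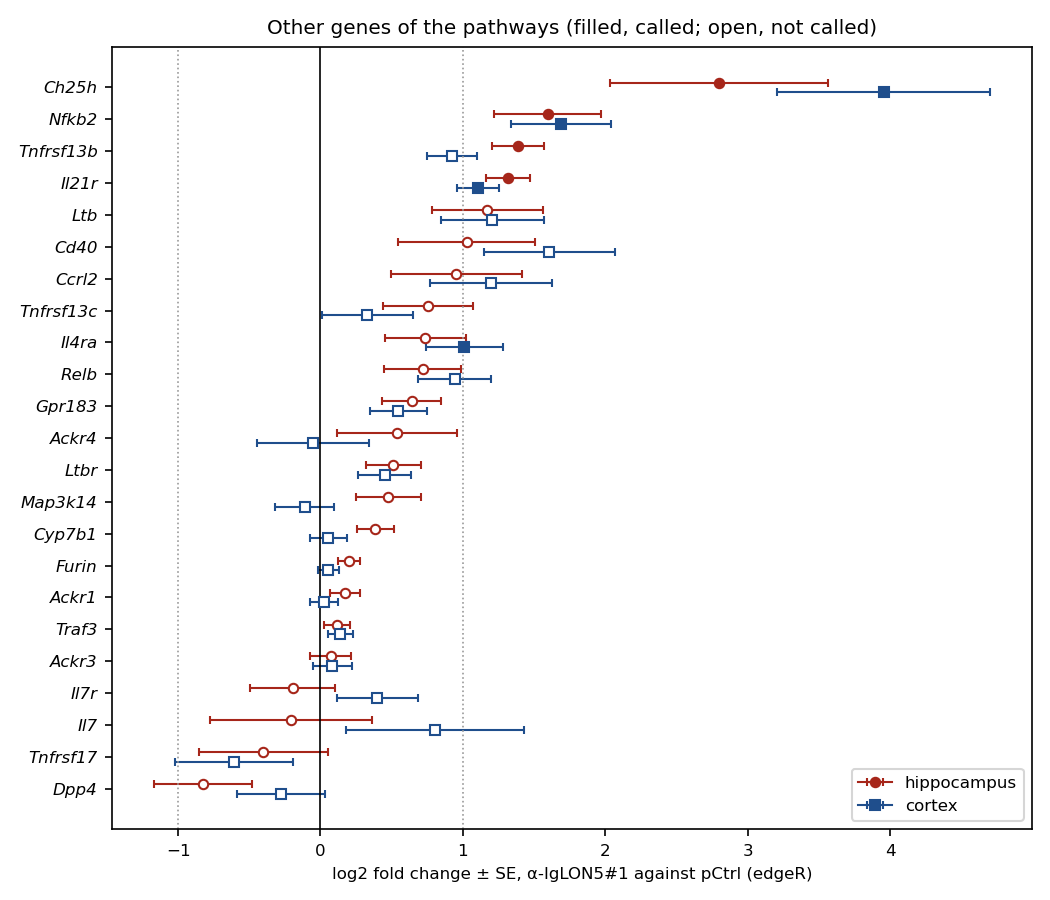
Log2 fold change of α-IgLON5#1 against pCtrl (x axis) with its SE for the 23 tested pathway genes (y axis, sorted by hippocampus), red circles for hippocampus and blue squares for cortex, filled where called, dotted lines at a fold of 2. Ch25h is farthest to the right in both tissues (2.80 and 3.96), and no gene is called to the left of 0.

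The genes whose level most resembled that of Cxcl13 were looked for among 15587 tested protein-coding genes other than the 8 factors and antibody segment genes, by Pearson's r of log2 CPM over the 27 libraries. The 5 closest were Adgre1 (F4/80, a macrophage receptor, r = 0.970), Fyb (an adaptor of immune cells, r = 0.965), Ptpn6 (the phosphatase SHP-1, r = 0.964), Cd72 (a B cell receptor that myeloid cells can also carry, r = 0.962) and Itgb2 (the leukocyte integrin chain CD18, r = 0.958), and 96 genes had an r above 0.9. The libraries share mice and groups, so any gene that separates the autoantibody group scores high, and Spearman's rho for the 5 was 0.691 to 0.768. Within the group the levels of Adgre1 were 30.5, 64.5, 51.5 and 24.5 CPM in the hippocampi of mice 8, 9, 16 and 17, and 44.2, 62.8, 17.3 and 25.7 CPM in the cortices. The pCtrl means of Adgre1 were 7.0 ± 1.16 CPM in hippocampus (SD, n = 4) and 7.99 ± 0.697 CPM in cortex (SD, n = 5).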

How the data were processed

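RNA of cortex and hippocampus from 14 mice was sequenced by the authors after TruSeq stranded library preparation, 27 libraries in 6 groups. The deposited table holds raw counts per Ensembl gene, made by the authors with STAR at default settings (version 1.4.0 per the submitters' processing notes). The counting program, its strand setting and the annotation release are not given in the sources used here. Of 55487 gene IDs, 55227 were matched to GENCODE M21, and all 27 columns were assigned to samples by their titles.

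The 8 genes, the pathway and marker lists and the tests were chosen with earlier results of these data known, and 1 listed marker gene is not reported here. The filter kept genes that reached 10 counts in 4 or more libraries, and edgeR 4.0.16 (R 4.3.3, limma 3.58.1) compared them by its quasi-likelihood test after TMM scaling, in 1 fit of all 6 groups without covariates, with Benjamini-Hochberg adjustment over all genes tested. A call needed an adjusted p under 0.05 and a fold above 2, and the difference between tissues an adjusted p alone. The standard error is the log2 fold change divided by the square root of F, and intervals are ± 1.96 SE. Log2 CPM used a prior count of 1. Ratios of summed counts have exact binomial 95% intervals, and these and the floor of 3 counts cover counting error only, since the reads carry no molecular identifiers.

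Named genes were the 8 factors, the pathway genes called against pCtrl in either tissue (at most 20) and the 5 genes with the highest Pearson r to Cxcl13. Alternatives were DESeq2 1.42.0, RLE scaling, 2 other count filters, no fold threshold, only the groups compared, the composition score as a covariate, mice 8 to 17 only, CPM of the library total, each library left out, and the mouse as a block. A second composition score, built without genes that differed between treatments and without listed genes, was added after seeing the data.

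The mouse number ties both tissues to 1 animal. Over the 13 mice with both, the deviations of the tissues from their group means correlated from -0.0518 to 0.459 (median 0.192, above 0.1 in 8). No 2 libraries of a group agreed within sampling noise (chi-square per degree of freedom at least 4.44 over 48 pairs). Promoter sequences are from RefSeq, GRCm38.p6. Tables and figures were made with Python 3.11.15, pandas 2.3.3, scipy 1.17.1 and matplotlib 3.10.9.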

Additional observations from a re-analysis of the deposited data

Results flagged for a closer look

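Within groups of 4 or 5 libraries, a sample that stood far from the others by Dixon's criterion was found in 4 of 36 groups of the 6 tested factors, where chance gives about 1 in 20 for normally distributed values. That rate does not hold where all other libraries are at 0 counts, as for Cxcl13 in pCtrl hippocampus and Ccr7 in PBS cortex, since any count then meets the criterion. The pCtrl hippocampus of mouse 15 stood apart for both Cxcl13 (0.094 CPM, 5 counts, with the other 3 libraries at 0) and Ccr7 (0.432 CPM, 23 counts, with at most 3 in the others). The α-IgLON5#1 hippocampus of mouse 9 stood apart for Tnfsf13, at 0.225 CPM from 4 counts against at least 0.886 CPM in the other mice of the group. The PBS cortex of mouse 38 stood apart for Ccr7 with 0.0946 CPM, which are 3 counts where the other 4 libraries had 0.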

How the results depend on the processing

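No log2 fold change that was called turned its direction under any alternative: of 1011 refitted values of the 6 tested factors, 975 kept their side of the threshold, 30 lost a call, 6 gained one and 0 reversed a call. The number of the 8 factors called in hippocampus against pCtrl, 2, was 1 with either composition score as a covariate, with at least 10 counts in every library or with only the groups compared, 0 with mice 8 to 17, and 2 to 4 when single libraries were left out (4 without pCtrl mouse 15 or α-IgLON5#1 mouse 16). Against PBS in hippocampus, 3 became 2 with only the groups compared, 1 with 10 counts in every library, 0 with mice 8 to 17, and 2 to 3 with single libraries left out. In cortex against pCtrl, 2 became 1 with either composition score, with 10 counts in every library or with only the groups compared, 0 with mice 8 to 17, and 1 to 3 with single libraries left out (1 without mouse 8). In cortex against PBS, 3 became 1 with 10 counts in every library or with only the groups compared (without Ccr7 and Cxcr4), 0 with mice 8 to 17, and 1 to 3 with single libraries left out (1 without mouse 8). Pathway genes called against pCtrl in hippocampus, 4, were 2 with either composition score, or with only the groups compared, 1 with mice 8 to 17, and 2 to 5 with single libraries left out (2 without mouse 8). Against PBS in hippocampus, 7 became 5 with only the groups compared, 4 with 10 counts in every library, 0 with mice 8 to 17, and 3 to 7 with single libraries left out (3 without mouse 8). In cortex against pCtrl, 4 became 2 with the composition score built without treatment genes, 1 with the other score, 1 with only the groups compared, 0 with mice 8 to 17, and 1 to 8 when single libraries were left out (1 without mouse 8, 8 without mouse 16 and 7 without mouse 17). In cortex against PBS, 6 became 1 with only the groups compared, 0 with mice 8 to 17, and 2 to 8 with single libraries left out (2 without mouse 8). The 1 pathway gene that differed between the tissues of PBS mice became 6 without a fold threshold, and 0 without the cortex of mouse 38 or the hippocampus of mouse 74. Mice 8 to 17 leave 1 PBS mouse and fewer pCtrl mice, and the stricter filter removes genes near 0 in controls, such as Cxcl13, from the test. The cause of the other changes was not tested. With the mouse as a replicate block, the comparisons within mice changed no call: 0 factors for both differences between tissues, and 1 for PBS mice, Cxcr4, at -1.51 with an edgeR adjusted p of 6.37e-07. For comparisons between treatments no paired analysis was possible because each mouse received 1 treatment. Depth limits Cxcr5 and Ccl19, at 0 to 16 counts per library, and the size of the Cxcl13 fold, which rests on 0 to 5 counts per control library.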
